A study of Mus musculus with 6 samples.

Results

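The T cell receptor gene segments are the building blocks of the antigen receptor of T cells, and the arrays held 13 probe sets for them among 22626 probe sets in all. A probe set is a group of short oligonucleotides that together report 1 transcript level. The members were every probe set whose platform gene symbol, alone or among several, named a segment of the alpha, beta, gamma or delta chain locus. They carried 7 gene symbols: 6 probe sets were annotated to the alpha chain (Trav9d-3 and Trav12n-1), 2 to the beta chain (Trbv1 and Trbv13-2) and 5 to the gamma chain (Trgv1, Trgv2 and Trgv4). All 7 symbols were variable (V) segments, and 0 probe sets were annotated to the delta chain, so delta is not described here. The RefSeq gene table (assembly GRCm38.p6) lists 274 receptor segment or locus symbols, and these arrays therefore name a small part of the repertoire.

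RNA had been taken from mouse CD4+CD25+ cells separated with magnets to obtain regulatory T cells (Treg), the lineage that restrains immune responses under the transcription factor Foxp3. The 3 knockout arrays came from fl-DNMT1/Foxp3cre mice, in which Cre recombinase under Foxp3 acts on a floxed gene for the maintenance DNA methyltransferase Dnmt1, and are called knockout arrays here. The 3 control arrays came from mice labelled only as wild type. The strain of both groups is labelled C57BL6, and no source used here states age, sex or pooling of animals. What the Cre or the floxed allele does by itself and what the deletion does cannot be told apart. The samples of a group are called independent without being tied to separate animals, so the p-values measure the spread between these samples, which may be technical. Values are log2 expression made by RMA, a method that corrects background, normalises the arrays to each other and sums up the probes of a probe set. Array medians lay between 5.70 and 5.77, and precision is limited by having 3 arrays in each group.

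A T cell receptor is a pair of chains, alpha with beta on conventional CD4+ and CD8+ T cells and gamma with delta on a separate lineage of gamma delta T cells. Each chain gene is assembled in the thymus by V(D)J recombination, which joins a V segment to J (and, for beta and delta, D) segments, and the joined exon is spliced to a constant region. Rearranged gamma genes can also be found in alpha beta T cells, where they are largely silenced. In a sample of many cells the level of a V segment depends both on how many cells use it and on how much each cell transcribes, and these cannot be told apart here.

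The 5 gamma chain probe sets were all higher on average in the knockout, and 4 of them rose at an adjusted p under 0.05, while 0 of the 8 alpha and beta probe sets rose. Among the alpha and beta probe sets 1 fell, a Trav9d-3 probe set, and the other 7 did not pass. The test was limma on every probe set with Benjamini-Hochberg adjustment over all 22626. It called 1.19% of all probe sets higher and 0.486% lower in the knockout. An unadjusted p under 0.05 was found for 3767 of the 22626. The median difference, knockout minus wild type, was 1.53 over the gamma probe sets, -0.28 over the alpha probe sets and -0.019 over all probe sets on the log2 scale. The beta pair had differences of -0.20 and -2.66. The 5 gamma probe sets are not independent of each other, as 4 of them share the symbol Trgv4.

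**Figure D1:**
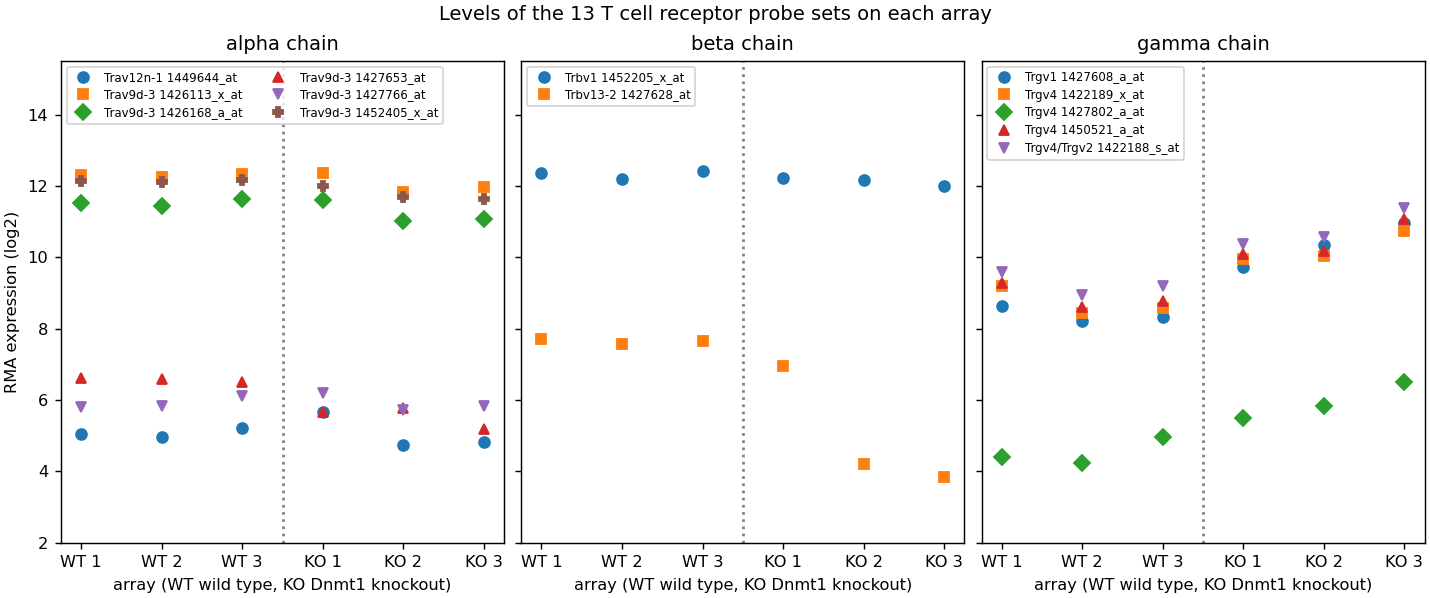
Log2 RMA expression of the 13 receptor probe sets (vertical axis) on each of the 6 arrays (horizontal axis), in a panel per chain, with a marker per probe set. The knockout values of the 5 gamma probe sets lie above their own wild type values, and Trbv13-2 lies at 6.94 on knockout replicate 1 and near 4 on the other knockout arrays.

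Trgv1, a V segment of the gamma locus on chromosome 13, had the largest rise of the members. Its probe set (1427608_a_at) had levels of 8.63, 8.23 and 8.33 on wild type replicates 1, 2 and 3 and of 9.72, 10.34 and 10.97 on the knockout arrays. The lowest knockout value lay above the highest wild type value. The mean went from 8.40 ± 0.21 to 10.34 ± 0.62 (SD, n = 3), a difference of 1.94 (SE 0.28) or 3.85-fold, with a limma adjusted p of 0.0228. Of all probe sets, it had the 69th largest rise. In RefSeq's table Trgv1 lies next to Trgv2 on one side and the joining segment Trgj4 on the other.

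Trgv4, a V segment used by a subset of gamma delta T cells, was the only annotated symbol of 3 probe sets. The first (1450521_a_at) had 9.28, 8.61 and 8.79 in wild type and 10.08, 10.18 and 11.06 in the knockout. It rose by 1.55 (SE 0.28, limma adjusted p = 0.0424), or 2.92-fold, and its groups did not overlap. The second (1422189_x_at) had 9.19, 8.44 and 8.57 in wild type and 9.95, 10.03 and 10.75 in the knockout, and rose by 1.51 (SE 0.26, limma adjusted p = 0.0361). The third (1427802_a_at) was measured at lower levels, 4.40, 4.24 and 4.95 in wild type and 5.49, 5.82 and 6.51 in the knockout. Its difference of 1.41 (SE 0.28) had a limma adjusted p of 0.0558 and did not pass, although its groups did not overlap either. RMA compresses low levels, so the fold of such a probe set may be understated.

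Another probe set (1422188_s_at) is annotated to both Trgv4 and Trgv2, and its signal cannot be divided between them. It had 9.58, 8.96 and 9.19 in wild type and 10.36, 10.57 and 11.39 in the knockout. The difference was 1.53 (SE 0.27, limma adjusted p = 0.0410), or 2.89-fold. Probe sets with the ending _s_at or _x_at hold probes that can match more than 1 transcript, and V segments resemble each other. The signal of such a probe set may therefore come from more than 1 gamma segment. No source used here says which part of the receptor transcript each gamma probe set reads. Use of a named gamma segment therefore cannot be read from them.

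The gamma probe sets also moved together within a group. On knockout replicates 1, 2 and 3 the median of their deviations from the wild type mean was 1.19, 1.30 and 2.15. All 5 had their lowest knockout value on replicate 1 and their highest on replicate 3. That order held for 14.5% of all probe sets and for 17.8% of those called higher in the knockout. As 4 of the 5 carry the symbol Trgv4, their shared order does not count as 5 separate agreements. In wild type all 5 were lowest on replicate 2, and 4 of the 5 were highest on replicate 1. Their wild type SDs ran from 0.21 to 0.40, where the median over all probe sets was 0.099.

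**Figure D2:**
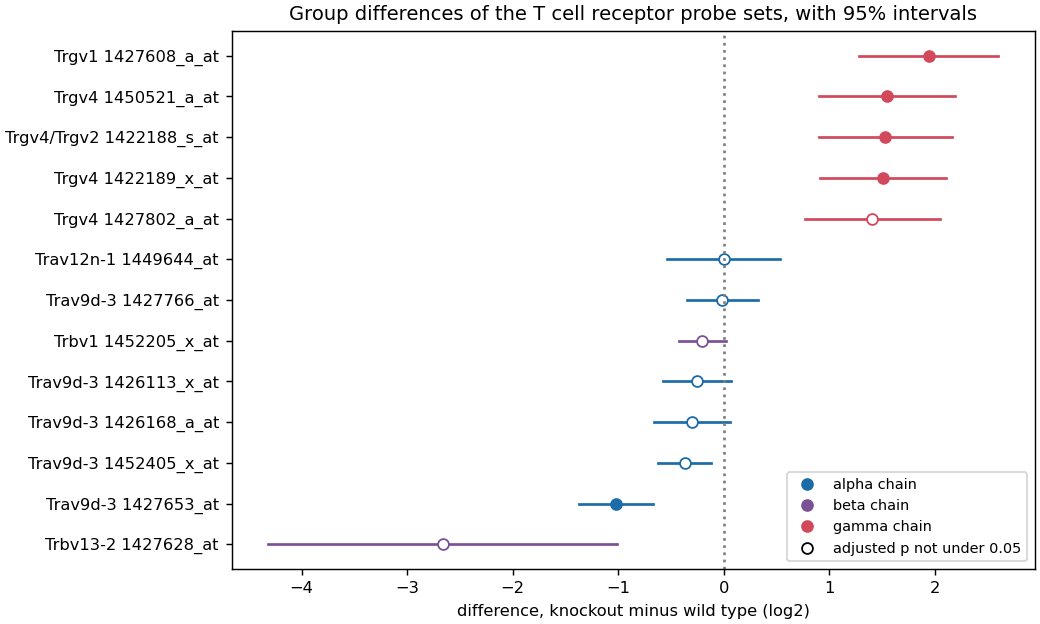
Difference between the group means, knockout minus wild type, on the log2 scale (horizontal axis) for the 13 probe sets, with limma's 95% intervals as lines, coloured by chain. Filled points have an adjusted p under 0.05: 4 gamma probe sets and 1 alpha probe set. The interval of Trbv13-2, from -4.32 to -1.01, is the widest.

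The alpha chain was described by 6 probe sets, 5 of which carry the symbol Trav9d-3, a V segment on chromosome 14. Of these, 1427653_at was the member that fell. It had 6.61, 6.60 and 6.51 in wild type and 5.68, 5.79 and 5.19 in the knockout. The groups lay apart, and the difference was -1.02 (SE 0.15, limma adjusted p = 0.0236), or 2.03-fold lower. Of all probe sets, 30 had a larger fall.

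The other 4 Trav9d-3 probe sets did not pass. Those at high levels had wild type means of 12.30 ± 0.04 (1426113_x_at), 12.14 ± 0.03 (1452405_x_at) and 11.53 ± 0.10 (1426168_a_at), and knockout means of 12.05 ± 0.28, 11.77 ± 0.20 and 11.23 ± 0.32. Their differences were -0.25 (95% interval -0.57 to 0.070), -0.37 (-0.62 to -0.12) and -0.30 (-0.66 to 0.058), with limma adjusted p-values of 0.416, 0.156 and 0.381. Knockout replicate 1 had 12.37 for 1426113_x_at and 11.59 for 1426168_a_at, within or just above the wild type range, while replicates 2 and 3 lay below it. The last (1427766_at) had means of 5.93 ± 0.17 (wild type) and 5.92 ± 0.25 (knockout), and its difference was -0.011 (-0.35 to 0.33). The probe sets under this 1 symbol thus gave differences from -1.02 to -0.011, and no source used here says which part of the receptor transcript each one reads.

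Trav12n-1, the other alpha segment, showed no detectable group difference. Its probe set (1449644_at) had 5.05, 4.96 and 5.22 in wild type and 5.66, 4.75 and 4.82 in the knockout. Knockout replicate 1 was above and the other knockout arrays were below all wild type arrays, so the means of 5.08 ± 0.13 and 5.08 ± 0.51 hide a wider knockout spread. The difference was 0.0011 (95% interval -0.53 to 0.54, limma adjusted p = 0.999).

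The beta chain was described by 1 probe set each of Trbv1 and Trbv13-2, V segments on chromosome 6, and 0 of the 2 passed limma's adjusted threshold, with 1 at an unadjusted p under 0.05. Trbv1 (1452205_x_at) had 12.36, 12.20 and 12.41 in wild type and 12.22, 12.15 and 11.99 in the knockout. These ranges overlap, and the difference was -0.20 (95% interval -0.43 to 0.026, limma adjusted p = 0.354). Its mean level was at the 98.9th percentile of all probe sets. This _x_at probe set may match more than 1 transcript, and no source used here says which part of the receptor transcript it reads. Use of the Trbv1 segment itself therefore cannot be read from it.

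Trbv13-2, a beta segment next to Trbv12-2 and Trbv12-3 in RefSeq's table, had the most negative difference of the members. Its probe set (1427628_at) had 7.72, 7.58 and 7.67 in wild type and 6.94, 4.20 and 3.83 in the knockout. All 3 knockout values were below the wild type values, the first by less than 1 unit and the other two by more than 3. The difference was -2.66 (SE 0.71), a deeper mean fall than that of all but 2 of the 22626 probe sets, but the limma adjusted p was 0.126. The knockout SD was 1.70 against 0.068 in wild type, and 12 probe sets had a larger knockout SD. Without knockout replicate 1 the difference was -3.64 (limma adjusted p = 7.87e-05); leaving out any other single array gave adjusted p-values of 0.244 to 0.319.

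Over the whole set, 8 of the 13 probe sets had groups that did not overlap: all 5 gamma, 2 alpha and 1 beta. Of all probe sets 23.4% had such groups in either direction, and 9.79% had them with the knockout higher. The 13 divided into 6 positive and 7 negative differences.

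**Figure D3:**
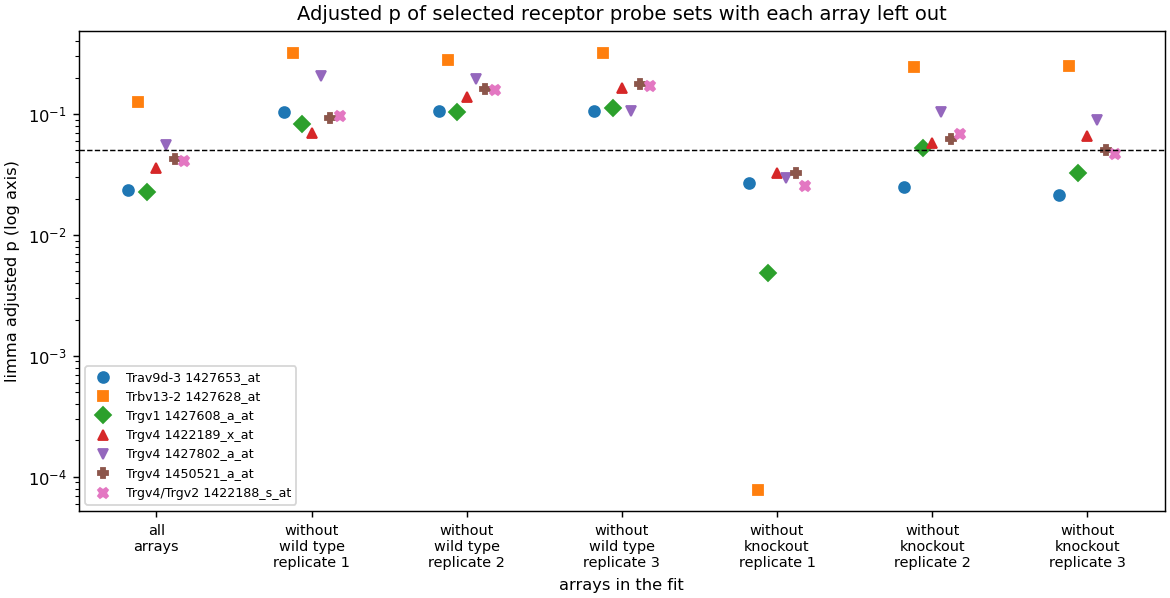
Adjusted p from limma (log axis) of the 5 gamma probe sets, the Trav9d-3 probe set that fell and Trbv13-2, with all arrays and with each array left out in turn; the dashed line marks 0.05. The gamma probe sets lie above the line whenever a wild type array or knockout replicate 2 is left out, and all 7 lie below it without knockout replicate 1.

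The calls rested on few arrays. Of the 5 gamma probe sets, 0 passed limma's adjusted threshold without wild type replicate 1, 2 or 3 or without knockout replicate 2, 2 passed without knockout replicate 3 and 5 without knockout replicate 1. All 5 had an unadjusted p under 0.05 in each of these fits, and their differences ran from 1.12 to 2.26. Over all 22626 probe sets, calls higher went from 270 to 39, 68 and 24 without wild type replicates 1, 2 and 3. They numbered 493, 241 and 144 without knockout replicates 1, 2 and 3. The fall of 1427653_at was lost without wild type replicate 1, 2 or 3 (limma adjusted p 0.104 to 0.107), and kept without each knockout array. Calls lower over all probe sets went from 110 to 6, 11 and 5 without wild type replicates 1, 2 and 3. Those counts were 263, 92 and 40 without knockout replicates 1, 2 and 3. Without knockout replicate 1, 3 alpha probe sets and Trbv13-2 passed as lower, the alpha ones being 1427653_at, 1426168_a_at (adjusted p = 0.0485) and 1452405_x_at (adjusted p = 0.0360), all Trav9d-3.

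The other genes of receptor assembly and surface display did not pass. Counts at an unadjusted p under 0.05 stand beside 3767 of all 22626 probe sets, here and for the marker lists. Of 5 genes of the signalling complex that carries the receptor (Cd3d, Cd3e, Cd3g, Cd247 and the pre-receptor alpha chain gene Ptcra), 0 passed limma's adjusted threshold and 0 had an unadjusted p under 0.05, with a median difference of -0.12. Cd3e, a signalling chain, had the lowest p, with 11.44 ± 0.05 in wild type and 11.25 ± 0.15 in the knockout (limma adjusted p = 0.376). Of 11 measured V(D)J recombination genes 0 passed and 1 had an unadjusted p under 0.05, Prkdc, the DNA-dependent protein kinase of end joining (7.59 ± 0.05 and 7.27 ± 0.15, limma adjusted p = 0.161). Rag1, which encodes a subunit of the recombinase, had values from 3.48 to 4.12 over the 6 arrays. Of 14 measured transcription factor genes that act on the receptor loci, 0 passed and 3 had an unadjusted p under 0.05. The lowest p among them was that of Bcl11b, a T lineage factor, with 10.83 ± 0.03 and 10.57 ± 0.10 (limma adjusted p = 0.173).

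Markers of other cells were also measured, and their lists did not all move with the groups. Of 9 measured genes typical of gamma delta T cells, 1 passed limma's adjusted threshold and 7 had a positive difference. An unadjusted p under 0.05, in either direction, was found for 6 of the 9. The gene that passed, the interleukin-1 receptor gene Il1r1, rose from 5.76 ± 0.35 to 7.68 ± 0.16 (limma adjusted p = 0.00540). Its call held whichever array was left out (limma adjusted p at most 0.0491). The mean of this list was 6.46 to 6.63 on the wild type and 6.83 to 7.31 on the knockout arrays. Sox13, a transcription factor of that lineage, was singled out after its values were seen. It had 5.76, 5.45 and 5.59 in wild type and 6.14, 6.42 and 7.79 in the knockout, ordering all arrays within a group as Trgv1 did, with a difference of 1.18 (SE 0.38, limma adjusted p = 0.183). Sox13's knockout order held for 14.5% of all probe sets. Blk and Zbtb16 were also highest on knockout replicate 3, but Il1r1, Il17a, Ccr6 and Fcer1g were highest on replicate 2. Etv5 and Id3 had negative differences. Id3 had 9.39, 9.50 and 9.32 in wild type and 9.29, 8.10 and 7.95 in the knockout (difference -0.96, limma adjusted p = 0.191). Other cells share most of this list, with Blk in B cells, Fcer1g in myeloid and NK cells and Ccr6, Id3 and Il1r1 in other T cells. The delta chain and the markers of this list that were not measured are not described here.

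Of 7 natural killer (NK) cell markers, 5 had a positive difference and 6 had an unadjusted p under 0.05 in either direction. The receptor gene Ncr1 rose (5.51 ± 0.07 to 8.01 ± 0.85, limma adjusted p = 0.0223) and the activating receptor gene Klra8 fell (6.06 ± 0.35 to 3.95 ± 0.22, adjusted p = 0.00480). The Klra8 probe set (1425417_x_at) may match more than 1 transcript. The call on Klra8 held whichever array was left out (adjusted p at most 0.0430), and that on Ncr1 was lost without wild type replicate 1, 2 or 3 or knockout replicate 3 (at most 0.106). The NK list mean was 7.82 to 7.94 in wild type and 7.68 to 8.42 in the knockout. Of 5 CD8 T cell markers 0 passed limma's adjusted threshold and 2 had an unadjusted p under 0.05. Klrk1, an activating receptor gene, had the lowest p (7.58 ± 0.14 and 8.85 ± 0.70, adjusted p = 0.0981), while Cd8a and Cd8b1 had lower means in the knockout. That list had a mean of 7.07 to 7.83 in wild type and 6.99 to 7.58 in the knockout.

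Of 12 neutrophil markers 7 rose, and all 12 had a positive difference and an unadjusted p under 0.05. Among the 7 were S100a8, S100a9 and Ngp, which encode granule or cytosolic antimicrobial proteins. The list mean was 6.10 to 6.53 in wild type and 8.25, 10.31 and 8.93 on knockout replicates 1, 2 and 3, highest on replicate 2 and not on replicate 3 as for the gamma probe sets. Of 8 monocyte and macrophage markers Cd14 rose (list mean 5.39 to 5.91 and 6.17 to 7.02), and 5 had an unadjusted p under 0.05. Without wild type replicates 1 and 3 in turn all 7 neutrophil calls were lost, as was Cd14 without each wild type array (limma adjusted p at most 0.160). Of 6 B cell markers 0 passed limma's adjusted threshold and 0 had an unadjusted p under 0.05, and the list mean was 7.23 to 8.44 in wild type and 7.08 to 7.88 in the knockout. RMA values have no zero, so no marker can be read as absent. The part of any of these cells in the receptor results was not tested.

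Genes of the intended cells were measured alongside. Of 8 core alpha beta T cell genes 0 passed limma's adjusted threshold and 2 had an unadjusted p under 0.05. Their mean was 10.27 to 10.37 in wild type and 10.41, 10.11 and 9.85 on knockout replicates 1, 2 and 3, and Cd28, a costimulatory receptor gene, had the lowest p (10.23 ± 0.11 and 9.85 ± 0.08, adjusted p = 0.0881). Of 8 Treg markers 0 had a positive difference and 7 had an unadjusted p under 0.05. The list mean was 9.26 to 9.34 in wild type and 9.02, 8.76 and 8.48 on knockout replicates 1, 2 and 3. At limma's adjusted threshold 3 of the 8 fell: Nrp1, Ikzf2 and Il2ra, with differences of -0.80, -0.77 and -0.64 (limma adjusted p = 0.0300, 0.0400 and 0.0444). Each of these falls was lost without each wild type array and 2 knockout arrays, replicates 2 and 3 for Il2ra and Nrp1 and 1 and 3 for Ikzf2 (limma adjusted p at most 0.187). Foxp3 had 9.47, 9.51 and 9.51 in wild type and 9.28, 8.82 and 8.43 in the knockout (difference -0.66, limma adjusted p = 0.151), and its knockout order was the reverse of that of the gamma probe sets. Such a reverse order held for 15.8% of all probe sets, and a link between them was not tested. Dnmt1, the targeted gene, had means of 9.50 ± 0.07 and 8.96 ± 0.34 (1422946_a_at, limma adjusted p = 0.162) and of 9.45 ± 0.12 and 8.74 ± 0.39 (1435122_x_at, adjusted p = 0.113). No source used here says whether they read the deleted part of the gene. On knockout replicate 3, which had the highest gamma values, the 2 Dnmt1 probe sets were at 9.34 and 9.17, the highest of the knockout arrays. Both values were still below all wild type values of the same probe set. Their knockout order, rising from replicate 1 to 3, held for 14.5% of all probe sets. A link between Dnmt1 and gamma levels was not tested.

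**Figure D4:**
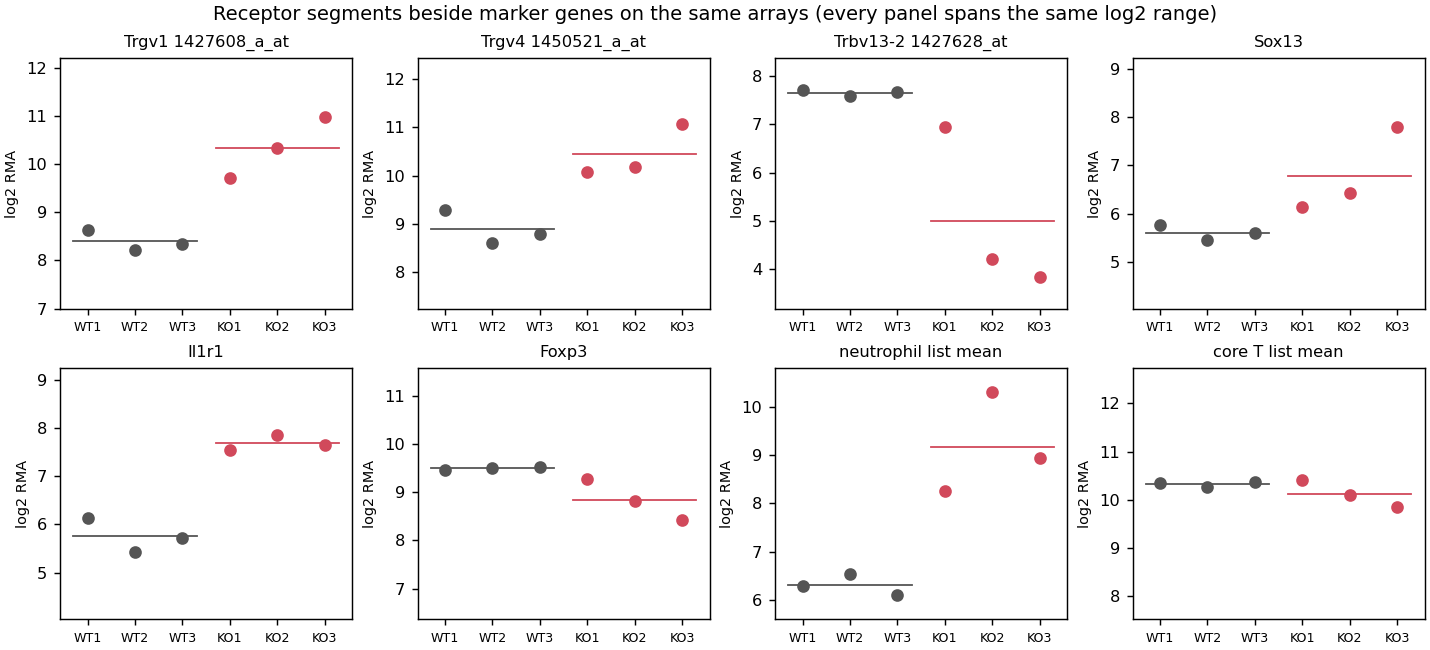
Log2 RMA level (vertical axis) by array (horizontal axis) of 3 receptor probe sets, Sox13, Il1r1, Foxp3 and the means of the neutrophil and core alpha beta T cell lists. Each panel spans the same log2 range and lines are group means. Trgv1, Trgv4 and Sox13 are highest on knockout replicate 3, Il1r1 and the neutrophil list on knockout replicate 2, and Foxp3 is lowest on knockout replicate 3.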

How the data were processed

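The deposited log2 values are probe set summaries that the authors made with RMA (named in the submitters' processing notes, version and settings not stated in the sources used here). The 6 arrays were labelled with biotin in 1 colour and grouped by their genotype labels. Of 22690 probe sets, 64 controls were left out. Symbols came from the platform's annotation: 20380 probe sets had 1 symbol, 691 several and 1555 none. All 7 member symbols were found in the RefSeq gene table (GRCm38.p6).

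Every probe set was fitted with limma 3.58.1 (lmFit, eBayes) in R 4.3.3, with group as the only term and no filter. P-values are two-sided, adjusted by Benjamini-Hochberg over all probe sets and called under 0.05. The procedure was tested on simulated data. Listed genes outside the receptor loci were represented by their brightest probe set. Named were all members, and per list the called genes (up to 3) or the gene with the lowest p, with Dnmt1, Foxp3 and a few others to show a range. The members and lists were chosen with earlier results of these data known. Alternatives were quantile normalisation, median centring, leaving out the dimmest 40%, array weights, a replicate block, a robust variance with trend, leaving out probe sets with several symbols and leaving out each array. Figures used matplotlib 3.10.9.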

Additional observations from a re-analysis of the deposited data

How the results depend on the processing

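Of 168 values of single members under alternatives, 125 kept their direction and their side of the threshold, 28 lost the call, 6 gained one and 9 changed sign. The sign changes were those of Trav12n-1 (-0.038 under quantile normalisation, -0.027 under median centring, -0.035 with array weights, and -0.29 to 0.16 with 1 array left out, including -0.0095, -0.059 and -0.29) and of 1427766_at (-0.15 to 0.087 with 1 array left out, including 0.086 and 0.034), none of them called. With trend and robust variance 0 gamma probe sets and so 0 receptor probe sets were called higher (limma adjusted p 0.0567 to 0.0887, with 5 gamma probe sets at an unadjusted p under 0.05), and 182 of all probe sets were called lower. Array weights called 169 of all probe sets lower and 5 gamma probe sets higher. Correlations of same-numbered deviations were -0.076, 0.11 and -0.010, and those of differently numbered arrays ran from -0.11 to 0.12. These values cannot decide whether the replicate numbers pair the samples. With the replicate block 2 gamma and 2 receptor probe sets were higher, and 166 of all probe sets were higher and 52 lower. With 1 array left out, receptor probe sets called higher numbered 0 to 5 and lower 0 to 4, gamma higher 0 to 5, alpha lower 0 to 3, beta lower 0 to 1, and all probe sets 24 to 493 higher and 5 to 263 lower. The cause of these changes was not tested, and each fit with 1 array left out also had fewer arrays. No delta chain count could be made. With 3 arrays a group and probe sets that may match related segments, small differences at high levels could not be resolved.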
